A study of Mus musculus with 16 samples.

Results

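The Schlafen family was described in footpad epidermal cells through 7 genes, Slfn1, Slfn2, Slfn3, Slfn4, Slfn5, Slfn8 and Slfn9, out of 50600 gene identifiers with a count. The family was chosen on the size of the Slfn4 rise with papain, so the papain differences of its members are given as a description, with no p. The 16 libraries came from female C57/B6J mice, 4 in each of 4 groups, and each library was made from a separate mouse. From 5 wk of age the mice ate for 3 wk a purified diet poor in ligands of the aryl hydrocarbon receptor (AhR-poor diet, labelled SYNTH) or that diet enriched in indole-3-carbinol, a plant-derived source of AhR ligands, at 200 ppm (I3C diet). The footpad then received a PBS injection of 50 μl, which in the papain groups contained 50 μg of this plant protease, used as an allergen, and in the vehicle groups contained none. The epidermal cells were isolated after 6 hr. No group carried a deletion or a transgene. Mice on the same diet shared a cage, so that diet and cage cannot be told apart, and the labels do not tie a library to any of the 3 sequencing units, so no within-batch value could be given.

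Schlafen proteins share an N-terminal core that in several members cuts or binds transfer RNA, and through it they act on translation, cell growth and virus replication. Short members hold little more than this core, intermediate members add a linker domain, and long members add a helicase-like part that carries a nuclear signal. Several of the genes are induced by type I interferon and by Toll-like receptor ligands, and they are best known from T cells, monocytes and macrophages, where they have been tied to quiescence and differentiation.

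All 7 members lie on mouse chromosome 11 (GRCm38, positions from GENCODE release M21), and each is annotated as protein coding. Slfn5 (ENSMUSG00000054404) lies at chr11:82951349-82964840 on the plus strand, followed by Slfn9 (ENSMUSG00000069793) at chr11:82978390-82991830 and Slfn8 (ENSMUSG00000035208) at chr11:83002158-83020810, both on the minus strand. Slfn2 (ENSMUSG00000072620) lies at chr11:83065112-83070678, Slfn1 (ENSMUSG00000078763) at chr11:83116849-83122670, Slfn4 (ENSMUSG00000000204) at chr11:83175186-83190216 and Slfn3 (ENSMUSG00000018986) at chr11:83191330-83215154, all on the plus strand. The longest annotated coding sequence has 337 codons in Slfn1 and 378 in Slfn2, the short members. It has 602 codons in Slfn4 and 640 in Slfn3, the intermediate members, and 884 in Slfn5, 910 in Slfn8 and 910 in Slfn9, the long members. The count table holds 4 further Schlafen-named genes. These are the pseudogene Slfn10-ps, Slfn14 and the antisense gene Slfn5os, all within the same stretch of chromosome 11, and Slfnl1 on chromosome 4.

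Members of the family resemble each other closely enough for reads to be shared. Of the stretches of 50 bases in the exons of each gene, 0.606% of those of Slfn1, 4.27% of Slfn2 and 3.37% of Slfn5 also occurred in another gene. The share was 10.8% in Slfn4 and 15.6% in Slfn3, each with the other as its main partner, and 14.6% in Slfn8 and 11.5% in Slfn9, with Slfn10-ps as the main partner of both. The values of Slfn3, Slfn8 and Slfn9 are therefore the least certain, since the handling of such reads is not given in the sources used here. Slfn5 also shares 559 exonic bases with Slfn5os on the opposite strand, which had 0 to 3 counts in every library.

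The promoter windows are shown because 6 of the 7 members moved together with diet and papain while Slfn9, whose window is the closest match of another member's, did not. Each window runs from 250 bases before to 50 bases after the transcription start in RefSeq (GRCm38.p6), written 5′ to 3′ on the strand of the gene. Capitals in the Slfn4 and Slfn2 windows mark ACTTCCTGG, the longest stretch that the windows of Slfn1, Slfn2, Slfn3 and Slfn4 share, which was found by comparing these 4 sequences. Capitals in the Slfn5, Slfn8 and Slfn9 windows mark a match on either strand to the core of the interferon-stimulated response element, GAAANNGAA.
Slfn4 (chr11:83174936-83175235, plus strand): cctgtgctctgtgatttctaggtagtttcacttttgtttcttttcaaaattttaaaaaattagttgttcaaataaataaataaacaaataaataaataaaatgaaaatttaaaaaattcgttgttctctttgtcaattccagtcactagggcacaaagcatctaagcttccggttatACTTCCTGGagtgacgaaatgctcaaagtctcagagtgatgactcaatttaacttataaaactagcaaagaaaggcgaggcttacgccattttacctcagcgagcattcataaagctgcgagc
Slfn2 (chr11:83064862-83065161, plus strand): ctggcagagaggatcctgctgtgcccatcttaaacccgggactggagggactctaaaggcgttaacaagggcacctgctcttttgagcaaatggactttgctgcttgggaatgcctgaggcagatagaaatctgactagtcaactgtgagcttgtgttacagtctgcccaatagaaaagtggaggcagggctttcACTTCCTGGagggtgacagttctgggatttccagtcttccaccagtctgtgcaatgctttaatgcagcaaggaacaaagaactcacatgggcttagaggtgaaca
Slfn5 (chr11:82951852-82952151, plus strand): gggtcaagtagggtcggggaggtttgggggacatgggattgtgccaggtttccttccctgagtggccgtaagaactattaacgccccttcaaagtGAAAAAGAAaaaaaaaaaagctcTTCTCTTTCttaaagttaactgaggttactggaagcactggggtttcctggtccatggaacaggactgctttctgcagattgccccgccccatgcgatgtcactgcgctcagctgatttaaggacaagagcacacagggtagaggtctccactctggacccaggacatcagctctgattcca
Slfn8 (chr11:83020761-83021060, minus strand): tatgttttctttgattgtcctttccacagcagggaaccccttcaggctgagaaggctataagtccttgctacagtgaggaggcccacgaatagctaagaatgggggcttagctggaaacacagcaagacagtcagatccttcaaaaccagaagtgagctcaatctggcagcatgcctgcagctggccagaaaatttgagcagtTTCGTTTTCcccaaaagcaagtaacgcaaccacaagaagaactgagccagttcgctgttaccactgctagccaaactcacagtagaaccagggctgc
Slfn9 (chr11:82991781-82992080, minus strand): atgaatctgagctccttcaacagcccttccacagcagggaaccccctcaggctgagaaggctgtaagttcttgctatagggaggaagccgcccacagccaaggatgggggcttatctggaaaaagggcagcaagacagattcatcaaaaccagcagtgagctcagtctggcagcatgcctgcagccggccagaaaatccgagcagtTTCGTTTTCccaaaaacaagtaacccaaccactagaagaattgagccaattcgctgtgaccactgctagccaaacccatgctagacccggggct

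ACTTCCTGG, which holds on its reverse strand the GGAA core that ETS family factors bind, begins 73 bases before the start in Slfn4, 55 in Slfn2, 74 in Slfn1 and 42 in Slfn3. It occurs on either strand in 0.843% of the 32851 mouse windows of this length. The response element core occurs in 8.56% of all windows. Slfn5 holds 2 matches, 155 and 132 bases before the start, while Slfn8 and Slfn9 hold the match TTCGTTTTC at 47 and 44 bases before it. A further RefSeq window of Slfn8, with a start closer to the gene body, holds the same site. No window of Slfn1, Slfn2, Slfn3 or Slfn4 matches GAAANNGAA. The gamma interferon-activated site TTCNNNGAA (8.3% of all windows) and the core of the AhR response element, GCGTG (32.4%), were searched on both strands and match no window of a member. The Slfn8 and Slfn9 windows are identical at 248 of 292 aligned positions, which is 80.5% of the alignment when its gaps are counted too. These matches are of letters only, and binding was not measured.

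Library totals ranged from 22500821 to 51844375 counts. Levels are given as CPM, the counts divided by the library total after scaling it with a TMM factor (0.937 to 1.07). The floor of detection was set at 3 counts, or 0.0569 to 0.130 CPM by library, and covers counting error only. Keratinocyte genes were abundant in every library, with 21069 to 37271 CPM summed over 7 basal genes and 19099 to 44622 CPM over 9 suprabasal genes, so that the labelled cell type was borne out by its markers. Cells of other types were present too, and in such bulk samples fewer cells of a type and less RNA per cell cannot be told apart.

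With vehicle, Slfn9 was the most abundant member on both diets. Per kilobase of exon it reached 1.93 ± 0.46 CPM on the AhR-poor diet (mean ± SD of 4 libraries, likewise for the values that follow), followed by Slfn2 at 0.965 ± 0.181, Slfn5 at 0.198 ± 0.033, Slfn8 at 0.136 ± 0.041 and Slfn4 at 0.130 ± 0.038. Slfn8 exceeded Slfn4 in 2 of the 4 libraries, so that this pair did not differ beyond its spread. Slfn3 (0.0325 ± 0.0104 CPM per kilobase) and Slfn1 (0.0173 ± 0.0204) came last and overlapped. On the I3C diet with vehicle, Slfn9 had 2.23 ± 0.37 CPM per kilobase, ahead of Slfn2 at 0.246 ± 0.135 and Slfn8 at 0.0924 ± 0.0319, with Slfn2 above Slfn8 in 3 of 4 libraries. Slfn5 followed at 0.0457 ± 0.0085 CPM per kilobase. The last places were held by Slfn3, Slfn1 and Slfn4, which overlapped at 4 counts or fewer per library.

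With papain on the AhR-poor diet, Slfn4 took the first place, at 96.3 ± 76.0 CPM per kilobase, ahead of Slfn2 at 29.0 ± 19.9 and Slfn1 at 4.80 ± 3.29. This order of Slfn4, Slfn2 and Slfn1 held in each of the 4 libraries. Slfn5 (2.70 ± 1.85 CPM per kilobase), Slfn9 (2.48 ± 0.57) and Slfn8 (1.87 ± 1.35) followed with overlapping ranges. Slfn5 was above Slfn9 in 3 of 4 libraries, and Slfn9 was above Slfn8 in 3 of 4. Slfn3 remained low at 0.189 ± 0.086. With papain on the I3C diet, Slfn9 led at 2.98 ± 0.07 CPM per kilobase, above Slfn4 in 3 of 4 libraries. Slfn4 had 1.71 ± 2.60 CPM per kilobase there and exceeded Slfn2, at 1.17 ± 0.82, in 1 library only. Slfn8 (0.252 ± 0.075 CPM per kilobase), Slfn5 (0.146 ± 0.101), Slfn1 (0.0837 ± 0.0990) and Slfn3 (0.0131 ± 0.0203) followed, with overlapping ranges. In every library Slfn8 was above Slfn5 and Slfn5 above Slfn1, while Slfn1 was above Slfn3 in 3 of 4.

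**Figure D1:**
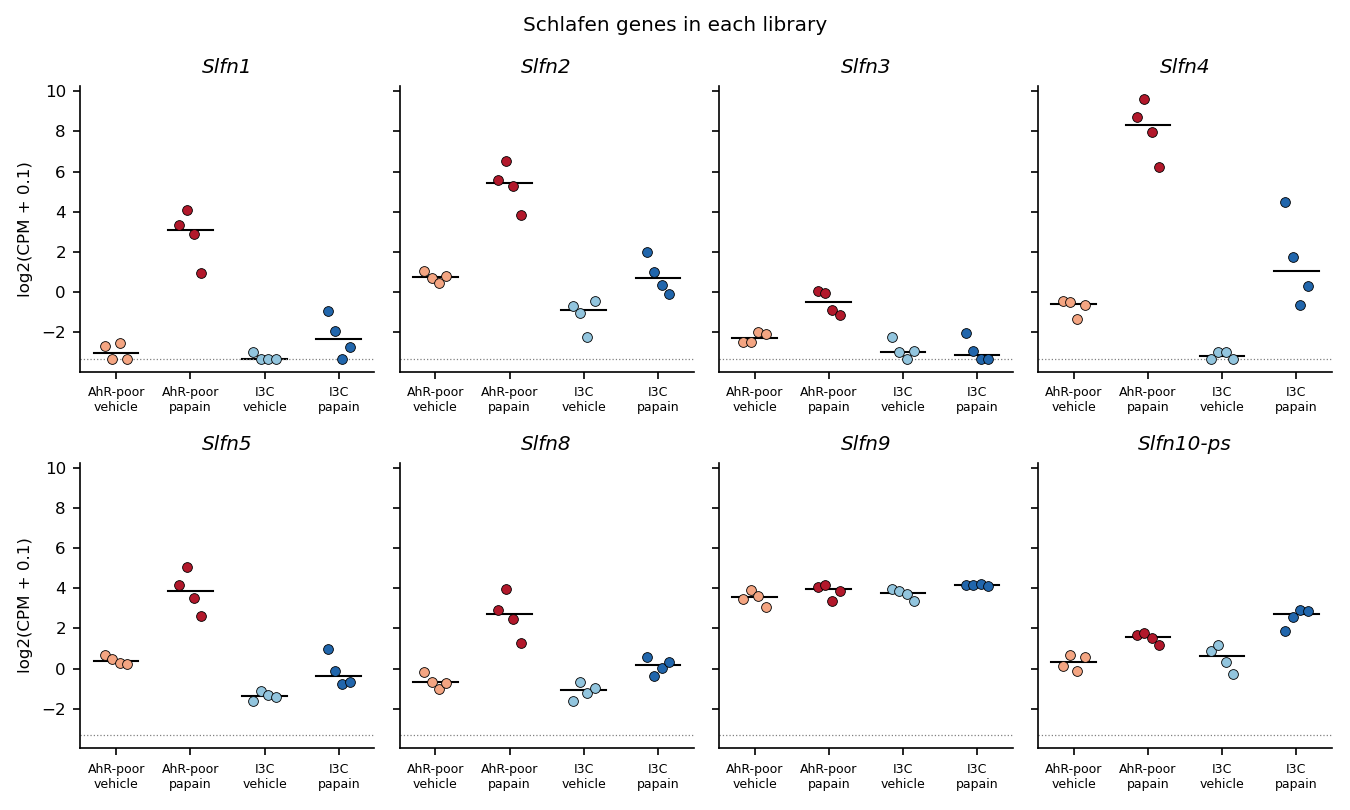
Each point is a library, the vertical axis gives log2(CPM + 0.1), the dotted line is a value of 0 CPM and the bars are group medians. For 6 members the 4 AhR-poor papain libraries lie above all others, whereas Slfn9 stays between 8.15 and 18.2 CPM in all 16 libraries and the pseudogene Slfn10-ps is highest with papain on the I3C diet.

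The make-up of the Schlafen transcripts differed between groups in the same way. Slfn9 made up 67.7% to 78.8% of the summed CPM of the 7 genes with vehicle on the AhR-poor diet, and 88.5% to 94.5% on the I3C diet. With papain on the AhR-poor diet its share was 1.86% to 12.7%, and Slfn4 held 65.6% to 81.6%. With papain on the I3C diet, Slfn9 still held 71.8% to 85.4% in 3 libraries, and 37.7% in library T106. The median summed level was 421 CPM with papain and 15.8 CPM with vehicle on the AhR-poor diet, and 22.9 and 14.7 CPM on the I3C diet, and every AhR-poor papain library lay above every other library.

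**Figure D2:**
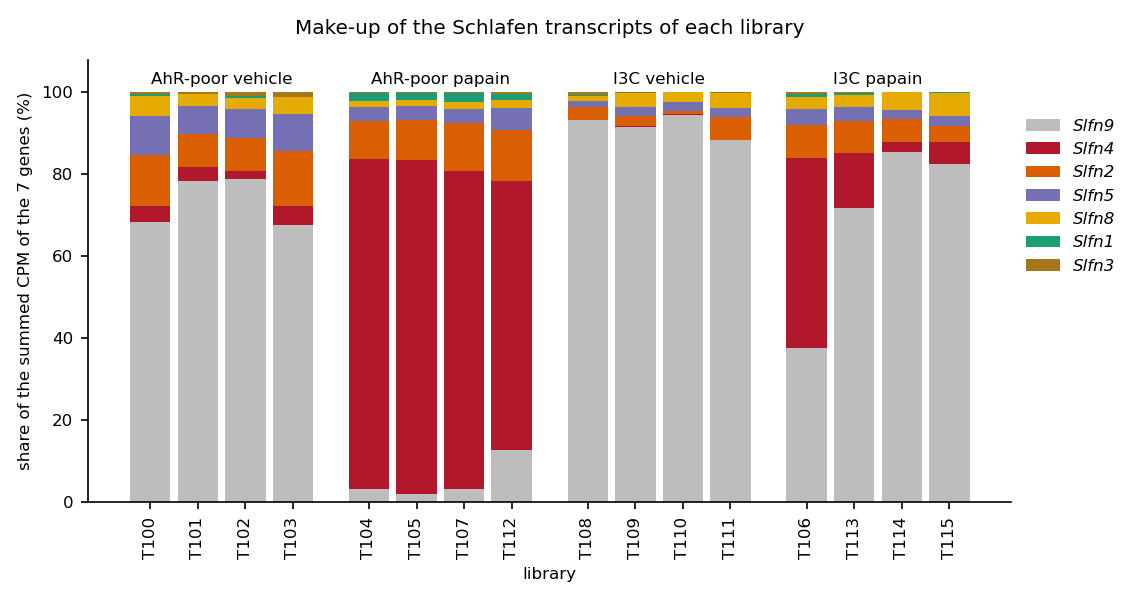
Stacked bars give the share (%) of each member in the summed CPM of the 7 genes, by library and group. Slfn4 fills 65.6% to 81.6% of the bar in the AhR-poor papain libraries, while Slfn9 fills most of it elsewhere except in library T106.

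The diet comparison with papain asked whether dietary AhR ligands changed the level of these genes during the allergen response. Its AhR-poor papain libraries are also those in which the Slfn4 rise was noticed, so the comparison is not fully independent of the choice. Of the 7 members, 6 were higher on the AhR-poor diet (edgeR quasi-likelihood F test, adjusted p by Benjamini-Hochberg under 0.01 and log2 fold change over 1), where 7.15% of the 22155 genes tested were. The median log2 fold change of the members was 4.20, against 0.01 over all genes tested. In each of the 6 every AhR-poor library lay above every I3C library, as for 12.5% of all genes, and a two-sided exact permutation test gave p = 0.0286, the smallest that 4 against 4 libraries allow.

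Among the short members, Slfn2, which is needed for the quiescence of T cells and monocytes and protects transfer RNA from cleavage, had 47.5, 93.4, 38.2 and 14.2 CPM in the AhR-poor papain libraries T104, T105, T107 and T112. It had 3.87, 1.92, 1.17 and 0.821 CPM in the I3C papain libraries T106, T113, T114 and T115. T105 was the highest and T112 the lowest on the AhR-poor diet, and T106 was the highest on the I3C diet. The log2 fold change between diets was 4.62, with a standard error (SE) of 0.58 and an adjusted p of 8.97e-05. Slfn1, the founding member, described as a brake on thymocyte growth, had 9.97, 16.6, 7.36 and 1.85 CPM in the AhR-poor libraries and 0.414, 0.160, 0 and 0.0497 CPM in the I3C libraries. Here too the lowest AhR-poor library was above the highest I3C library, and the log2 fold change was 5.78 (SE 0.76, adjusted p = 7.69e-05). The 4 I3C libraries held 24 Slfn1 counts in all, 17 of them in T106.

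Of the intermediate members, Slfn4, an interferon- and Toll-like receptor-induced gene of macrophages and other myeloid cells, had 415, 783, 253 and 75.5 CPM on the AhR-poor diet. In the I3C libraries it had 22.2, 3.30, 0.542 and 1.14 CPM. Values spread 10.4-fold within the AhR-poor group and 40.9-fold within the I3C group, and still did not overlap. The log2 fold change was 5.79 (SE 0.99, adjusted p = 0.00117), and 7.89 without T106. In a fit of only the 8 papain libraries the adjusted p of Slfn4 was 0.0217, above the threshold of 0.01. Slfn3, linked to the differentiation of intestinal epithelium, was scarce, with 38, 45, 10 and 13 counts in the AhR-poor libraries and 6, 1, 0 and 0 in the I3C libraries. Its log2 fold change was 3.72 (SE 0.70, adjusted p = 0.000620), and 5.69 without T106.

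Of the long members, Slfn5, a nuclear protein that can restrain interferon-driven transcription, had 17.9, 33.1, 11.4 and 6.12 CPM on the AhR-poor diet and 1.85, 0.834, 0.485 and 0.522 CPM on the I3C diet. These groups were also apart, with a log2 fold change of 4.20 (SE 0.50, adjusted p = 3.24e-05). Slfn8, a long member with the helicase-like part, had 7.56, 15.3, 5.41 and 2.31 CPM on the AhR-poor diet and 1.39, 0.673, 0.913 and 1.14 CPM on the I3C diet. Its difference was the smallest of the 6, with a log2 fold change of 2.88 (SE 0.44, adjusted p = 0.000195) and 2.28 without T105.

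Slfn9, the neighbour of Slfn8 with the same number of codons and a similar start region, did not pass. It had 16.5, 17.8, 10.1 and 14.6 CPM on the AhR-poor diet and 18.02, 17.6, 18.2 and 17.3 CPM on the I3C diet. The groups overlapped, and the log2 fold change was -0.26 with a 95% interval of -0.60 to 0.08 (adjusted p = 0.327, exact permutation p = 0.0857). The interval does not reach the log2 fold change of 1 that the call asks for. Slfn10-ps, the pseudogene next to Slfn8, was lower on the AhR-poor diet in every library. It had 3.10, 3.30, 2.73 and 2.18 CPM there and 3.605, 5.77, 7.39 and 7.16 CPM on the I3C diet. Its log2 fold change was -1.08 (SE 0.28) with an adjusted p of 0.0106, just short of the threshold. Reads that Slfn10-ps shares with Slfn8 and Slfn9 may have been split among them.

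**Figure D3:**
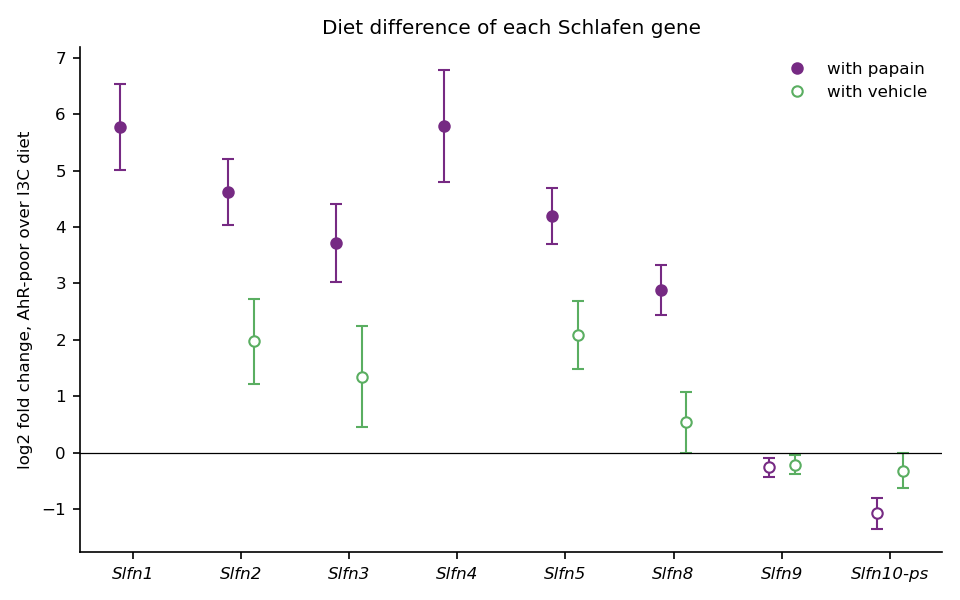
Points give the log2 fold change of the AhR-poor over the I3C diet with its standard error, for papain (purple) and vehicle (green), and filled points passed the test. With papain, 6 members lie between 2.88 and 5.79 while Slfn9 and Slfn10-ps lie below 0; Slfn1 and Slfn4 have no vehicle point because their I3C vehicle libraries held at most 1 count each.

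The diet comparison with vehicle asked whether the genes differed without the allergen. Its AhR-poor libraries are also the baseline from which the Slfn4 rise was noticed. No member passed the edgeR test, where 1.59% of all genes passed as higher with the AhR-poor diet. At an unadjusted p below 0.05 edgeR held 2 members, Slfn5 and Slfn2, and the Wald test of DESeq2 called 2, Slfn4 and Slfn5. Estimates were above 0 for 6 of the 7 members. Their median, 1.81 against -0.01 over all genes, is the fitted value of Slfn1, which rests on 5 counts against 1. In 3 members, Slfn2, Slfn4 and Slfn5, every AhR-poor library lay above every I3C library, as for 6.45% of all genes.

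Slfn5 had 1.53, 1.30, 1.11 and 1.07 CPM in the AhR-poor vehicle libraries T100 to T103, and 0.230, 0.357, 0.299 and 0.270 CPM in the I3C vehicle libraries T108 to T111. The values were tight within each diet, and the log2 fold change was 2.09 (SE 0.60) with an adjusted p of 0.0852 in edgeR. Slfn2 had 1.99, 1.54, 1.26 and 1.64 CPM against 0.517, 0.382, 0.109 and 0.630 CPM, a log2 fold change of 1.98 (SE 0.75, edgeR adjusted p = 0.260). Slfn4 was counted 23, 23, 12 and 20 times on the AhR-poor diet and 0, 1, 1 and 0 times on the I3C diet. The ratio of the summed counts, scaled to library size, was 36.9 with an exact 95% counting interval of 9.89 to 310. This interval leaves out the spread among mice. The edgeR adjusted p of Slfn4 was 0.678. The exact permutation p was 0.0286 for each of these 3 genes.

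These calls changed with the tool and with the libraries fitted. When only the 8 vehicle libraries were fitted, Slfn2, Slfn4 and Slfn5 passed, with adjusted p of 0.00596, 0.000441 and 0.000479. DESeq2 gave 0.00711 for Slfn4 and 0.00422 for Slfn5. The other members overlapped between diets. Slfn8 had 0.396 to 0.790 CPM on the AhR-poor and 0.230 to 0.535 CPM on the I3C diet, with a log2 fold change of 0.54 (95% interval -0.52 to 1.61). Slfn9 had 8.15 to 14.7 and 10.4 to 15.5 CPM, with a log2 fold change of -0.21 (95% interval -0.55 to 0.13). Slfn3 had 3 to 6 counts against 0 to 4, and 1.35 as its log2 fold change (95% interval -0.41 to 3.10), while Slfn1 was at or below the floor in both groups, so that no difference was detectable at this depth.

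Whether the diet difference itself changed with papain was tested as the interaction of diet and treatment. This interaction rests on the same libraries as the papain differences that chose the family, so the test is not independent of the choice. No member passed it in edgeR, where 0.0181% of all genes did, 3 members had an unadjusted p below 0.05 (Slfn2, Slfn5 and Slfn8), and DESeq2 called 0. The difference between diets was larger with papain by a log2 value of 2.34 for Slfn8 (SE 0.70, edgeR adjusted p = 0.174). For Slfn2 this value was 2.65 (SE 0.9997, adjusted p = 0.290) and for Slfn5 it was 2.10 (SE 0.80, adjusted p = 0.289). For Slfn9 it was -0.05 (95% interval -0.53 to 0.43), and for Slfn3 2.37 (SE 1.26, adjusted p = 0.415). Without T105 the value of Slfn8 was 1.75, and without T106 those of Slfn2, Slfn5 and Slfn3 were 3.27, 2.74 and 4.35. That of Slfn3 was 1.31 without T108. The values of Slfn1 and Slfn4 rest on I3C vehicle libraries with 0 or 1 count and are not given.

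The papain differences chose the family and are described without a p, and nothing is read from the counts of members set beside the share of all genes. On the AhR-poor diet 6 of the 7 members met the call rule as higher, Slfn9 being the exception, where 6.04% of all genes did. Slfn4 had 0.627, 0.609, 0.297 and 0.536 CPM with vehicle and 75.5 to 783 CPM with papain, a log2 fold change of 9.53 (SE 1.27). The summed Slfn1 counts were 5 with vehicle and 1520 with papain, a ratio of 302 with a 95% counting interval of 129 to 931. Log2 fold changes were 4.92 for Slfn2, 3.79 for Slfn8, 3.78 for Slfn5 and 2.53 for Slfn3. Without T105 those of Slfn4 and Slfn8 were 8.91 and 3.19. That of Slfn9 was 0.37, with overlapping groups. The order of the 4 libraries was the same for Slfn1, Slfn2, Slfn4, Slfn5 and Slfn8, with T105 first, then T104, T107 and T112.

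On the I3C diet 1 member, Slfn4, met the rule as higher in edgeR, where 3.69% of all genes did, and 4 did so in DESeq2, Slfn2, Slfn4, Slfn5 and Slfn8. The summed Slfn4 counts were 2 with vehicle and 1078 with papain, a ratio of 527 with a 95% counting interval of 145 to 4355. This interval covers counting error only and leaves out the spread among mice. Of the 1078 counts, 910 were in T106. The fitted fold was 401 with T106 and 93.5 without it, which is below the interval. Log2 fold changes were 2.27 for Slfn2, 1.67 for Slfn5, 1.44 for Slfn8 and 0.42 for Slfn9, and in each of these 4 genes every papain library lay above every vehicle library. Without T106 the log2 fold change was 1.65 for Slfn2, 1.05 for Slfn5 and 6.55 for Slfn4. Slfn3 had 0.16, which was -1.82 without T106 and 1.22 without T108. Slfn10-ps had 0.720 to 2.19 CPM with vehicle and 3.605 to 7.39 CPM with papain on this diet.

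Library T106 was the highest of the I3C papain libraries in Slfn1, Slfn2, Slfn3, Slfn4, Slfn5 and Slfn8, but not in Slfn9, and it was the lowest in Slfn10-ps. Dixon's test for outliers marked it in Slfn4 only, and in Slfn8 it had 1.39 CPM beside 1.14 CPM in T115. The ratio of the mean CPM of the AhR-poor over the I3C diet with papain was 56.2 for Slfn4 with T106 and 229.5 without it. It was 57.4 and 128 for Slfn1, 14.5 and 60.2 for Slfn3, 24.8 and 37.0 for Slfn2, 18.5 and 27.9 for Slfn5 and 7.42 and 8.39 for Slfn8. The 6 members passed the diet comparison with papain with and without T106.

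Markers of other cell types moved with the same groups. Among neutrophil genes, 7 of the 11 tested passed as higher with papain on the AhR-poor diet, the estimates of all 11 were above 0, and the 13 genes of the list summed to 81.7 to 556 CPM on that diet and 44.6 to 74.7 CPM on the I3C diet. The sum was 4.20 to 5.72 CPM with vehicle on the AhR-poor diet, where Ly6g was at 0, and 0.861 to 1.92 CPM on the I3C diet, where 7 of the 13 were at 0, Ly6g among them. Ly6g, which defines mouse neutrophils, had 84, 128, 58 and 8 counts in the AhR-poor papain libraries and 0 in the other 12. Library T106, which held 910 Slfn4 counts, was also the highest of its group in Csf3r and Retnlg. The granulocyte growth factor receptor gene Csf3r was counted 94 times in T106 and 16, 1 and 5 times in T113, T114 and T115, and Retnlg 12, 2, 0 and 0 times in the same libraries. The neutrophil chemokine receptor gene Cxcr2, which made up most of the I3C papain sum of 11 neutrophil genes (without S100a8 and S100a9), had 939, 603, 1032 and 1015 counts. A sum without Cxcr2, added after the data were seen, was 2.95, 0.834, 0.0856 and 0.124 CPM in these libraries, which is the order of their Slfn4. Csf3r alone gave 2.29, 0.513, 0.0285 and 0.124 CPM of it. The order therefore rests mostly on Csf3r, and between T114 and T115 on a few counts. With Cxcr2 included the sum was highest in T114, where Slfn4 was lowest. Mpo was at 0 in all AhR-poor papain libraries, and Camp, Ngp and Elane as well as Ly6g in all I3C papain libraries.

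With papain, 9 of the 10 monocyte and macrophage genes passed as higher with the AhR-poor diet, the estimates of all 10 were above 0, and no gene was at 0 in either papain group. The list summed to 85.1 to 304 CPM with papain on the AhR-poor diet and to 13.4 to 33.1 CPM on the I3C diet, with T106 the highest of the latter. With vehicle the sums were 49.7 to 59.7 and 19.8 to 29.3 CPM, and 2 of the 10 genes, Lyz2 and Mrc1, were higher on the AhR-poor diet. Within the AhR-poor papain group, T105 was highest and T112 lowest in this sum and in that of 11 neutrophil genes (without S100a8 and S100a9), as in Slfn4. The middle of the order differed, since T107 was above T104 in both sums but below it in Slfn4. Among the I3C papain libraries, T114 was above T115 in the monocyte and macrophage sum but below it in Slfn4. On the AhR-poor diet the receptor gene Csf1r, which makes up most of the vehicle sum, had a mean of 35.99 CPM with vehicle and 32.4 CPM with papain. In the same groups Lyz2 had 5.63 and 74.8 CPM, Ly6c2 0.142 and 11.5 CPM, Ccr2 0.557 and 9.08 CPM, and Fcgr1 0.0407 and 4.64 CPM.

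Genes of dermal cells followed the diet as well. With papain, 9 of 10 fibroblast genes and 8 of 9 endothelial genes passed as higher with the AhR-poor diet, and as many did with vehicle. Fibroblast genes summed to 295 to 714 CPM against 11.96 to 25.9 CPM with papain, and to 114.7 to 200.3 CPM against 20.3 to 24.9 CPM with vehicle. Endothelial genes summed to 27.4 to 66.1 CPM against 3.71 to 5.32 CPM with papain, and to 16.3 to 39.6 CPM against 3.16 to 4.56 CPM with vehicle. Langerhans cell genes summed to 843 to 1079 CPM against 234 to 703 CPM with papain, and to 880 to 1007 CPM against 261 to 595 CPM with vehicle, with no overlap between diets. With papain 1 of these 7 genes passed, the estimates of all 7 were above 0 in both comparisons, and their median log2 fold change was 1.21 with papain and 1.31 with vehicle. Cd74, H2-Aa, H2-Ab1 and H2-Eb1 made up most of the summed CPM. Cd207 had 33.7 against 13.9 CPM with papain and 55.2 against 17.9 CPM with vehicle. By imaging and by flow cytometry, the paper saw no significant effect of diet on how many Langerhans cells the epidermis held. T cell genes summed to 181 to 241 CPM against 169 to 195 CPM with papain, where 2 of 10 passed. With vehicle they summed to 89.3 to 123 CPM against 97.7 to 121 CPM. Thy1 made up most of the papain sums, at 165 against 157 CPM on average, and its log2 fold change was only 0.08. All 10 T cell estimates were above 0 with papain, and their median was 1.25. Of the vehicle estimates 8 were above 0, and the median was 0.60. Of keratinocyte genes, 0 of 16 passed with papain in edgeR or DESeq2, with 7 at an unadjusted edgeR p below 0.05. The part of these cells in the Schlafen differences was not tested.

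**Figure D4:**
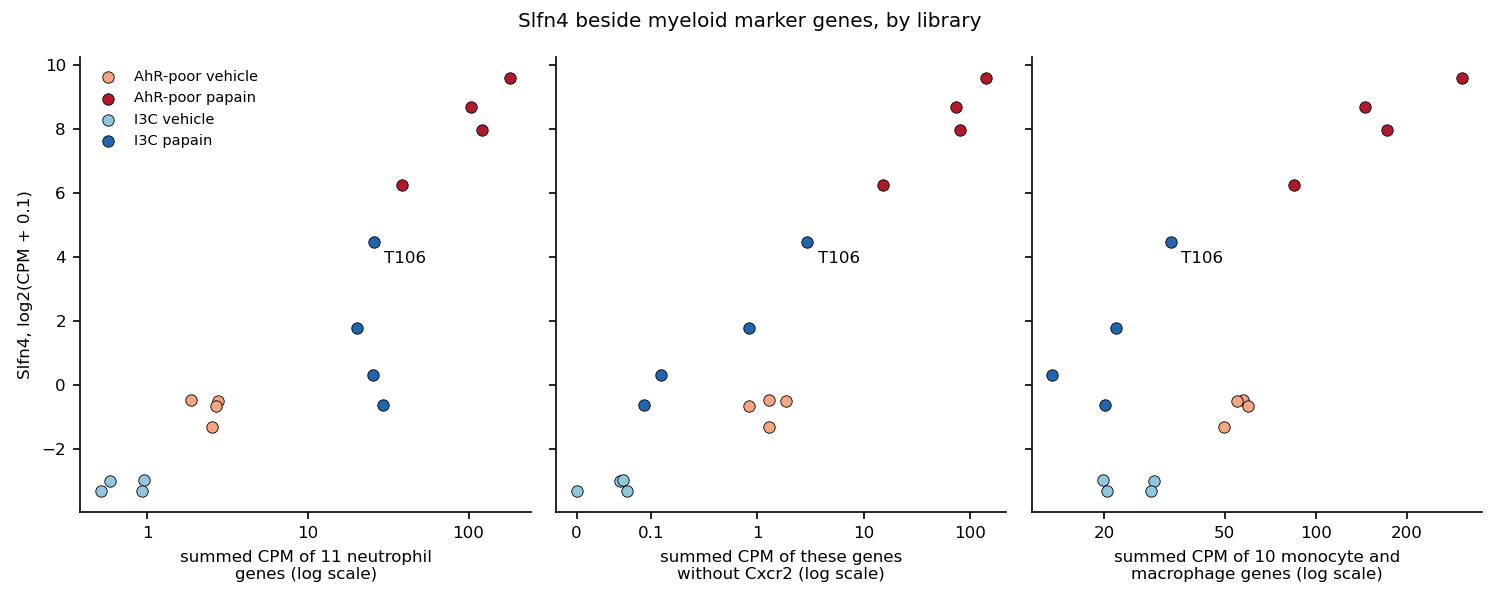
Each point is a library, with Slfn4 as log2(CPM + 0.1) against the summed CPM of 11 neutrophil genes (the list without S100a8 and S100a9) on the left, of these without Cxcr2 in the middle and of 10 monocyte and macrophage genes on the right, all on a log axis, where the sum of 0 of T108 in the middle is drawn at the left end. The I3C papain libraries hold 20.2 to 29.5 CPM on the left, most of it Cxcr2, and 0.0856 to 2.95 CPM in the middle, where T106 and T113 are the highest of the group, as they are in Slfn4. Most of the middle value of T106 and T113 is Csf3r, and Cxcr2 was dropped after the data were seen.

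The genes most like each member in pattern were sought among those with at least 1 CPM on average, by Pearson's r of log2(CPM + 0.5) over the 16 libraries. The 16 libraries fall into 4 groups, which largely set these values, and r is given as a description. Slfn4 was nearest to Hdc, which makes histamine (r = 0.99), Acod1, which makes itaconate (r = 0.98), and the cytokine gene Il1b (r = 0.98). Il1b had 233 ± 152 CPM with papain on the AhR-poor diet and 6.15 ± 5.97 CPM on the I3C diet. Slfn2 was nearest to Srgn, the core of the granule proteoglycan serglycin, Lilrb4a, an inhibitory receptor of myeloid cells, and Clec4e, a C-type lectin receptor, with r of 0.997, 0.994 and 0.993. Slfn1 was nearest to Hp, the gene of haptoglobin, A530064D06Rik and Fpr2, a formyl peptide receptor of phagocytes, with r of 0.997, 0.997 and 0.996.

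Slfn5 was nearest to Mpeg1, a pore-forming protein of macrophages, Entpd1, an enzyme that breaks down extracellular ATP, and the chemokine gene Ccl3, each with r = 0.99. Slfn8 was nearest to the interferon-induced Rtp4, to Ankrd33b and to Ifitm6, each with r = 0.98. Slfn9 had other neighbours, Mcm4 and Mcm2, subunits of the replicative DNA helicase, and Parp1, a DNA damage sensor, each with r = 0.90. Mcm4 had 78.3 ± 8.5 CPM with papain on the AhR-poor diet and 89.1 ± 2.9 CPM on the I3C diet. Slfn3, with under 0.5 CPM on average, was left out.

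The interferon pathway was followed from ligands to induced genes, since several Schlafen genes are among its targets. Of 9 ligand genes, 4 had enough counts to be tested, and 1, Ifnk, the interferon of keratinocytes, was higher with papain on the AhR-poor diet. It had 0.556 ± 0.0997 CPM there and 0.104 ± 0.057 CPM on the I3C diet (log2 fold change 2.32, SE 0.56, edgeR adjusted p = 0.00573), and did not pass without T104, T107, T113, T114 or T115. Ifng, the type II interferon, had 0.0945 ± 0.0706 and 0.0080 ± 0.0160 CPM and did not pass (edgeR adjusted p = 0.0299). Ifnb1, the first type I interferon made in many cells, was counted 3 times in T104 and 35 times in T105, and 0 times in every other library.

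Receptor and signalling genes were next. Of 6 receptor genes, 1 was higher with papain on the AhR-poor diet, Il10rb, a subunit shared by the type III interferon and interleukin-10 receptors, and it did not pass without T105. The type I receptor genes Ifnar1 (log2 fold change 0.06, SE 0.10) and Ifnar2 (0.22, SE 0.13) did not pass, and neither did the type II receptor gene Ifngr1 (-0.16, SE 0.09). Ifnlr1, of the type III receptor, had a log2 fold change of -0.44 (edgeR adjusted p = 0.00128) and did not reach the fold of the call rule. Of 13 signal transduction genes, 1 was higher, the myeloid transcription factor Irf8, with a log2 fold change of 1.55. Stat2 and Irf9, which act in type I interferon signalling, had log2 fold changes of -0.32 and -0.16 and did not pass. The most abundant genes of this list, the feedback inhibitor Socs3, the kinase Jak1 and the transcription factor Irf1, had 0.22, -0.51 and 0.56, and Jak1, at an edgeR adjusted p of 0.00279, likewise missed the fold of the rule. Usp18, a brake on type I receptor signalling, and Irf7, a transcription factor of interferon genes, both chosen after their values were seen, had 1.26 (SE 0.39, edgeR adjusted p = 0.0295) and 1.05 (SE 0.45, adjusted p = 0.128) and did not pass.

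Of 32 interferon-induced effectors, 14 passed as higher with papain on the AhR-poor against the I3C diet, where 7.15% of all genes did. None was lower, and the median log2 fold change was 1.48 against 0.01 over all genes. The list was chosen with earlier results of these data known. When only the 8 papain libraries were fitted, 8 passed. Ifit1, which binds viral RNA, had 24.3 ± 18.2 and 1.203 ± 0.894 CPM (log2 fold change 4.32), whereas the most abundant effectors, Samhd1, Ifi35 and Ddx58, had log2 fold changes of -0.34, 0.21 and 0.04 and did not pass. Ifit1 was chosen for naming after its value was seen. Of 6 induced genes that restrict RNA, a function near that of the Schlafen proteins, 1 was higher, the exonuclease gene Isg20 (log2 fold change 1.82), which did not pass without T113 or T115 or with only the 8 papain libraries fitted. The most abundant, Zc3hav1, Adar and Eif2ak2, had log2 fold changes of -0.11, -0.35 and -0.45. With vehicle, 0 of the 61 tested genes of the 5 lists passed in edgeR, 7 had an unadjusted p below 0.05, and DESeq2 called 3, Ifnk, Oas2 and Rtp4.

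The papain comparisons of these lists are again a description. Of the 32 effectors, 29 met the call rule as higher on the AhR-poor diet and 20 on the I3C diet, where 6.04% and 3.69% of all genes did. Of the 13 signal transduction genes 4 did so on each diet, Stat2 among them, with 31.5 ± 2.6 CPM with vehicle and 78.8 ± 13.9 CPM with papain on the AhR-poor diet, and 31.4 ± 4.4 and 98.1 ± 27.0 CPM on the I3C diet. The log2 fold changes of Slfn9 in the same comparisons were 0.37 and 0.42.

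**Figure D5:**
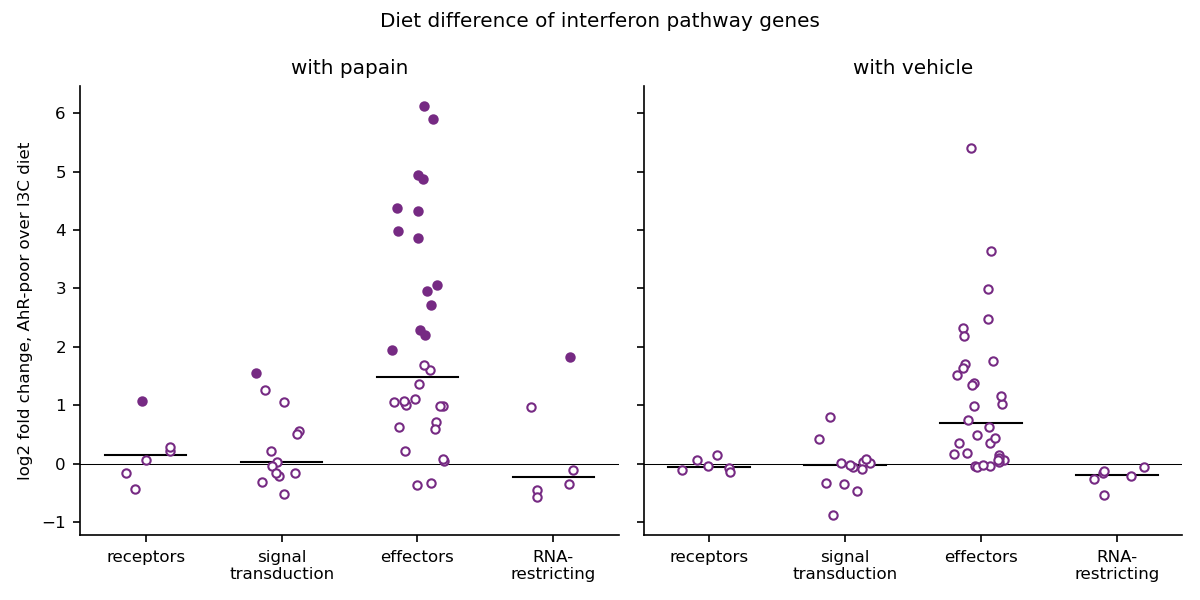
Points give the fitted log2 fold change of the AhR-poor over the I3C diet of each tested gene of 4 interferon lists, with papain on the left and vehicle on the right, filled points passed the test and bars are medians. With papain 14 of 32 effectors passed, compared with 1 of 6 receptors, 1 of 13 signal transduction genes and 1 of 6 RNA-restricting genes, and with vehicle none did.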

How the data were processed

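Footpad epidermal cells of 16 mice were profiled by RNA-seq from TruSeq Stranded mRNA libraries. Reads were assessed with FastQC and aligned to mm10 with STAR by the authors, who deposited the raw count of reads per gene and library, without normalization. The counter, annotation release and strand setting are not given in the sources used here. Of 50600 identifiers, 50376 matched a symbol in GENCODE M21.

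Libraries were grouped by the diet and treatment of their labels. Genes with at least 10 counts in total (22155, all 7 members among them) were fitted in edgeR 4.0.16 (R 4.3.3) with TMM factors, a mean for each of the 4 groups and the robust quasi-likelihood F test. Calls required an adjusted p (Benjamini-Hochberg) under 0.01 with a log2 fold change beyond 1 or -1. Standard errors were taken from the fold change and F, and 95% intervals as normal intervals from them. Two-sided exact permutation tests compared log2(CPM + 0.1). Where every library of a group held 3 counts or fewer, the ratio of summed counts is given with an exact interval. It covers counting error only and not the spread among mice. Levels per kilobase used the union of annotated exons. The model was tested on simulated data.

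The members and the gene lists were chosen with earlier results of these data known. Named are the members, other Schlafen-named genes, the 3 genes most like each member with at least 0.5 CPM, the 3 most abundant genes of each pathway list, Ifnb1, Ifnar1, Ifnar2, Stat2 and Irf9, and genes where a count was small; 1 further gene of this rule is not reported here. Settings were varied by using DESeq2 1.42.0, RLE factors, unscaled library sizes, filterByExpr, a minimum of 1 count, only the 8 libraries compared, other thresholds and leaving out each library.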

Additional observations from a re-analysis of the deposited data

Results flagged for a closer look

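Slfn4 in the I3C papain group had 22.2 CPM in library T106, far from the 3.30, 1.14 and 0.542 CPM of the other 3 libraries. The gap to the next library was 0.872 of the range of the group, above the 95% critical value of Dixon's test for 4 samples. It was the only such value among the 25 groups of 4 libraries examined, those of each member in which a library exceeded 3 counts. By sampling alone about 1 in 20 groups is marked.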

How the results depend on the processing

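No paired analysis was possible because no replicate code occurs in more than 1 group. With papain, the 6 members higher on the AhR-poor diet kept their direction and call in every fit that left out a library, and under the other settings except for Slfn4 with only the 8 libraries compared (adjusted p = 0.0217). With vehicle the number of members called higher was 0 in edgeR, 2 with DESeq2 (Slfn4 and Slfn5) and 3 with only the 8 libraries compared (Slfn2, Slfn4 and Slfn5). In the interaction the log2 value of Slfn9 (-0.05) was 0.00059 with library size only and ran from -0.174 to 0.0931 over the fits that left out a library, above 0 without T101, T107 or T111; the cause was not tested. Of 804 values of single members under all alternatives, 790 were marked as unchanged. In the diet comparisons and the interaction this meant the same direction and call. In the papain comparisons it meant a shift below the larger within-group SD of log2(CPM + 0.1), and calls were not compared there. Library size only moved the median of all genes in the diet comparison with papain by 0.10, from 0.01 to 0.11 on the log2 scale. Leaving out T106 raised the diet fold with papain over 1.5 times for Slfn1, Slfn2, Slfn3, Slfn4 and Slfn5, and leaving out T105 lowered it for Slfn4 (log2 5.16) and Slfn8 (2.28). Values of Slfn1 and Slfn3 that involve the vehicle groups also moved over 1.5 times without T102 or T108, where these genes had 6 counts or fewer per library. Depth limited Slfn1, Slfn3 and Slfn4 with vehicle on the I3C diet.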
